A study of Homo sapiens with 2 samples.

Results

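The long arm of chromosome 18 beyond the gene MAPRE2 was read as 1 stretch, from MAPRE2 to PARD6G, the last protein-coding gene of the chromosome in the RefSeq gene table of GRCh38.p14. The members were all protein-coding genes of that stretch in order of start position, with the SERPINB genes and PMAIP1 left out. They number 140, of which 124 have a probe set of their own on the array and 88 gave a signal above the floor in at least 1 population, out of 19775 genes with a probe set and 12466 above the floor. The stretch was chosen by its CD90+ over CD90- ratios on these arrays, so the ratios of its genes are given as a description, with no test. Both RNA samples came from the cell line KYSE-140, derived from a human squamous carcinoma of the esophagus. Flow cytometry parted the cells into a CD90+ and a CD90- fraction, CD90 being the surface glycoprotein encoded by THY1. Total RNA from the CD90+ and from the CD90- cells went onto 1 Affymetrix U133 Plus 2.0 array each, and the array values are MAS5 signals on a linear scale. With 1 sample per population, the values describe these 2 samples and the spread between sorts is unknown.

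Distal 18q carries several genes known from tumour biology. SMAD2 and SMAD4 carry the signal of TGF-beta receptors to the nucleus, SMAD7 damps the same receptors, DCC is a netrin receptor once described as deleted in colorectal carcinoma, and BCL2 blocks apoptosis. The arm also holds genes with no common pathway: zinc finger factors, methyl-CpG binding proteins, mitochondrial enzymes, parts of the secretory pathway and components of the spindle. Loss of 18q is a known event in carcinomas of the digestive tract, and DNA copy number was not analysed here.

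Nearly all members above the floor had lower signals in CD90+ than in CD90- cells. Of the 88 members 82 had a log2 ratio, CD90+ over CD90-, below 0, where 48.8% of all genes above the floor did. The median log2 ratio of the members was -0.59, or 1.51-fold lower in CD90+ cells, with quartiles at -0.89 and -0.34, and the median over all genes above the floor was 0.01. The differences were of modest size: 45 members were at least 1.5-fold lower (6.76% of all genes were) and 40 lay within 1.5-fold either way. With signals under the floor raised to it, 10 members were at least 2-fold lower (1.75% of all genes were) and 2 at least 2-fold higher (2.47% of all genes were). Summed over the members, signals were 104218 in CD90+ and 158562 in CD90- cells, a ratio of 0.657. In bulk RNA, fewer cells that carry a transcript and less of it per cell cannot be told apart.

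The floor, 71.6, is the geometric mean of both arrays' medians. Lower signals were raised to this value, and a gene is represented by its brightest probe set. A fold with 1 side under the floor is therefore a lower bound. The floor was reached on both arrays by 79 members, with a median of -0.56 and 73 ratios below 0. The other 9 reached it in CD90- cells alone, so that their ratio could only be below 0 and their fold is a lower bound. They were ZNF396, SIGLEC15, ST8SIA5, KATNAL2, ZBTB7C, CFAP53, ONECUT2, PIGN and CCDC102B, and they count as below 0 in the role lists too. The pattern was also seen away from the floor. All 28 members whose brighter side was at least 16 times the floor had ratios below 0, with a median of -0.67, a lowest of -1.57 and a highest of -0.21. The 4984 other genes of that brightness had a median of 0.01. Of the 28, TPGS2, HDHD2, MYO5B, ME2, NEDD4L, ZNF532 and KDSR reached 16 times the floor in CD90- cells alone. Their ratios could therefore only be below 0. Members at 4 to 16 times the floor had a median of -0.52 (40 genes, 37 below 0), and those under 4 times the floor -0.57 (20 genes, 17 below 0). There too, a member that reached its class in CD90- cells alone could only be below 0. A member that reached its class in CD90+ cells alone could only be above 0.

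**Figure D1:**
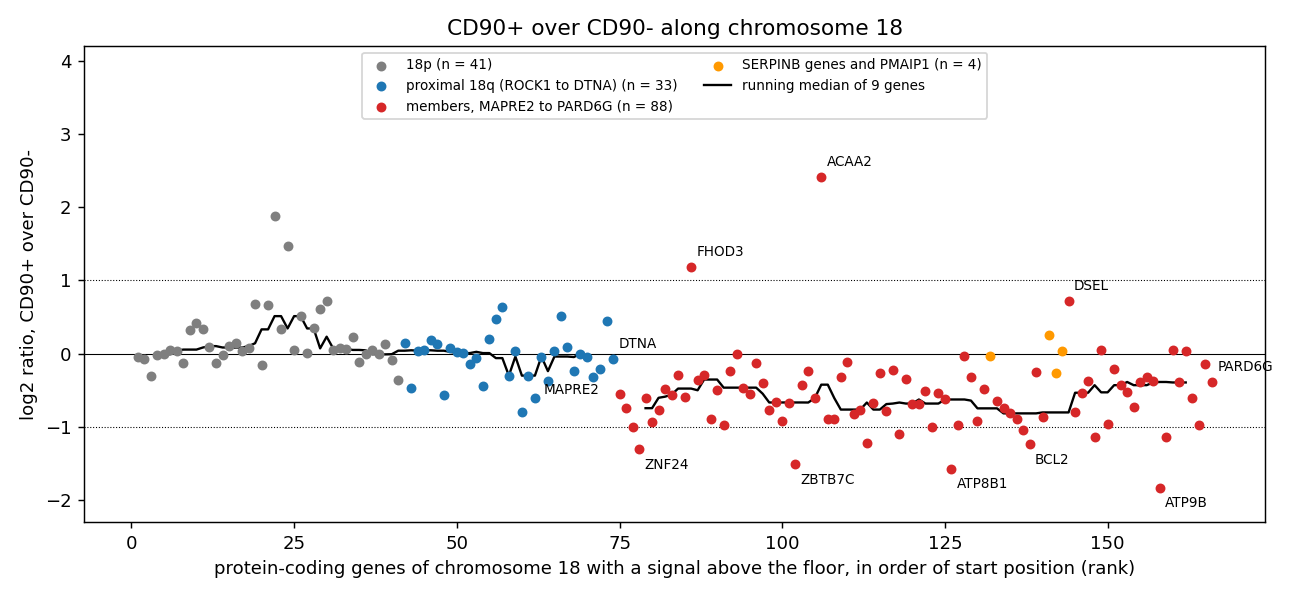
Log2 ratio (CD90+ over CD90-) of each protein-coding gene of chromosome 18 above the floor, ranked by start position; black lines are running medians of 9 genes, taken separately in the members and in the rest of the chromosome. Ratios lie around 0 up to DTNA and mostly between 0 and -1 from MAPRE2 to PARD6G.

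Along the chromosome the change lay between DTNA and MAPRE2, which are neighbours in the gene order. The last 3 genes above the floor before the border were ASXL3, a chromatin regulator (46.5 against 82.9, log2 ratio -0.21), NOL4 (135 against 99.8, 0.44) and the dystrobrevin gene DTNA (322 against 337, -0.07). The first 3 members above the floor were MAPRE2, a microtubule end binding protein (417 against 610.4, -0.55), and the zinc finger genes ZNF397 (397 against 664, -0.74) and ZSCAN30 (179.8 against 359, -0.999). Of the 3 measured probe sets of ZSCAN30 the dimmer ones gave -0.69 and 0.39. Over the 10 genes above the floor before the border the median was -0.02, with 5 ratios below 0, and over the first 10 members above the floor it was -0.67, with 10 below 0. The border is part of the rule, so these values describe where it was set.

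The rest of chromosome 18 had no such shift. Its 74 genes above the floor had a median of 0.04, with 30 ratios below 0 (48.8% of all genes were). Of the 74, 0 were at least 2-fold lower (1.75% of all genes were) and 2 at least 2-fold higher (2.47% of all genes were). These 2-fold counts are near the shares over all genes and say little. The median was 0.06 over 41 genes of the short arm and 0.0015 over 33 genes of proximal 18q, from ROCK1 to DTNA. Summed over the 74 genes, signals were 222142 in CD90+ and 206236 in CD90- cells. The desmosomal cadherins, which hold keratinocytes together, lie in proximal 18q close to the border. DSG2 read 10865 in CD90+ and 10183 in CD90- cells, DSG3 2898 against 2036, DSC2 3535 against 3444 and DSC3 3310.0 against 4267, none beyond 2-fold, and DSC1, DSG1 and DSG4 were under the floor. The medians of the other 22 chromosomes, Y not included, ran from -0.28 (chromosome 2) to 0.14 (chromosome 11). The like measure is that of whole chromosome 18, -0.26 over 166 genes with 68.7% below 0. Chromosome 2 had 79.5% of 772 genes below 0. A stretch chosen by its ratios cannot be set against whole chromosomes on equal terms.

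Within the stretch the lower ratios ran from end to end. The running median of 9 consecutive members was below 0 at all 80 positions, lowest around RELCH (-0.81) and highest around KIAA1328 (-0.35). In the rest of the chromosome it ran from -0.30 to 0.51. Parted into 4 consecutive blocks of 22 members, the medians were -0.55 (MAPRE2 to ST8SIA5), -0.67 (PIAS2 to C18orf54), -0.68 (RAB27B to DSEL) and -0.41 (TMX3 to PARD6G). The number of ratios below 0 was 21, 21, 21 and 19 of 22. The longest unbroken series of members below 0 held 33 genes, from MYO5B to VPS4B. PARD6G, a cell polarity protein and the last member, read 492 in CD90+ and 643 in CD90- cells (log2 ratio -0.39).

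**Figure D2:**
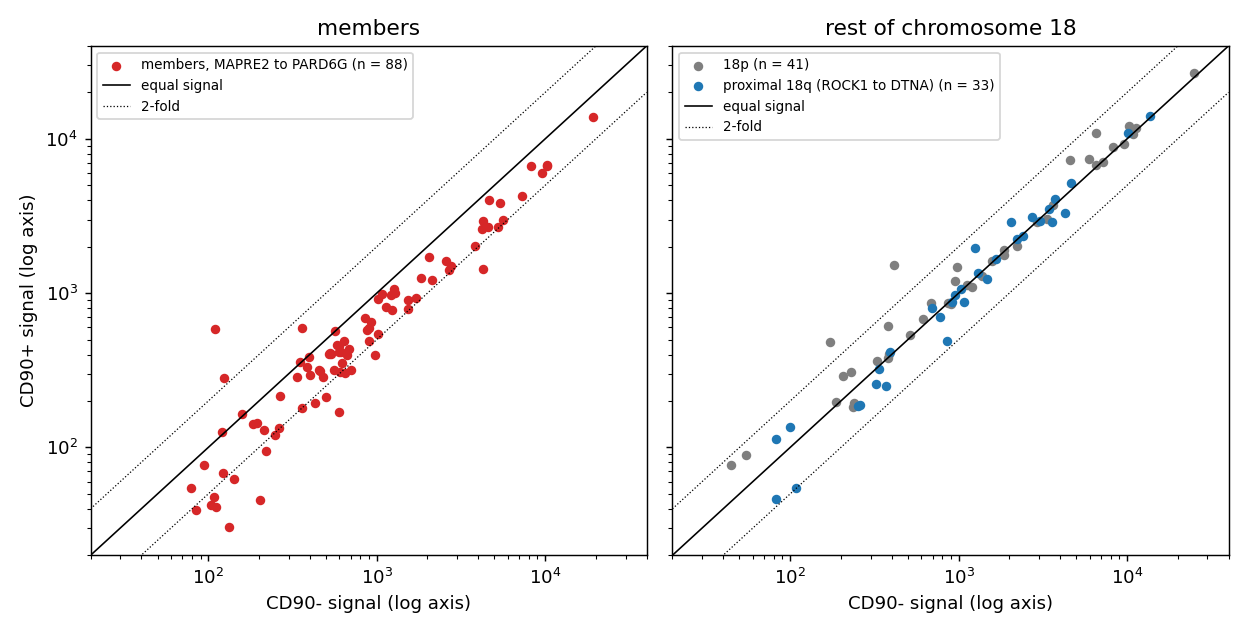
MAS5 signal in CD90+ against CD90- cells, both on log axes, for 88 members (left) and 74 other genes of chromosome 18 (right); the solid line marks equal signals and the dotted lines 2-fold. The members lie as a band below the line of equal signals, from the dimmest to the brightest genes, and the other genes along it.

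Of the genes left out by the rule, 4 of 11 were above the floor, and their signals were close in both populations. PMAIP1, the BH3-only protein NOXA, read 591 in CD90+ and 607 in CD90- cells. The serine protease inhibitors of squamous epithelium read 1302 against 1093 (SERPINB5, maspin), 217 against 259.7 (SERPINB13) and 235 against 229.8 (SERPINB8). PMAIP1 and SERPINB13 each had a second measured probe set further below 0, at -0.64 and -0.73. The members BCL2, KDSR and VPS4B come just before the SERPINB genes. With these 4 left-out genes kept in, 84 of 92 ratios were below 0 and the median was -0.55.

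The 5 measured members of the SMAD signalling list were all lower in CD90+ cells, and none was beyond 2-fold. SMAD4, the partner shared by TGF-beta and BMP receptors' SMADs, read 433 in CD90+ and 688 in CD90- cells, 1.59-fold lower, and all of its 4 measured probe sets were below 0. Those at 66 against 115 and 53.4 against 86.3 were under the floor in CD90+ cells and could only be below 0. SMAD2, which the TGF-beta and activin receptors phosphorylate, read 1618 in CD90+ and 2568 in CD90- cells, 1.59-fold lower, with all 5 probe sets below 0. SMAD7, the inhibitory SMAD, differed less, 1.18-fold, at 286 in CD90+ and 337 in CD90- cells. NEDD4L, a ubiquitin ligase of SMADs and of the epithelial sodium channel, was the lowest of the list at 787 in CD90+ and 1538 in CD90- cells, 1.95-fold lower on 4 probe sets of 1 sign. PIAS2, a SUMO ligase of transcription factors, read 405 in CD90+ and 532 in CD90- cells, with 6 of 6 probe sets below 0. The PIAS2 probe set at 33.4 against 96.9 was under the floor in CD90+ cells and could only be below 0. The median of these 5 genes was -0.67. Of 18 measured pathway genes on other chromosomes or elsewhere on chromosome 18, 15 lay within 1.5-fold, and the median was -0.09. Among the 18, 11 were below 0 (48.8% of all genes were) and 0 at least 2-fold lower (1.75% of all genes were). SMAD9 on chromosome 13 was 1.71-fold lower (653 against 1119) and ZFYVE9 on chromosome 1 1.54-fold lower (156 against 241), about as much as SMAD2 and SMAD4. The other 7 were above 0, SMAD6 among them (439 against 368). TGFBR2, the type II TGF-beta receptor, was the 1 at least 2-fold different, and higher in CD90+ cells (3137 against 1186, 2.65-fold).

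Chromatin and transcription genes made up the largest group, with 21 of 22 ratios below 0 and a median of -0.64. ZBTB7C, a BTB zinc finger protein, was at least 2.84-fold lower, at 45.7 in CD90+ and 204 in CD90- cells, the first of these under the floor. ZNF24, a zinc finger repressor near the border, read 398 in CD90+ and 979.6 in CD90- cells, 2.46-fold lower. Its other measured probe sets disagreed, at 380 against 835 (log2 ratio -1.13) and 114 against 115 (-0.01). NFATC1, a calcineurin-dependent factor of lymphocytes and epithelial stem cells, read 317 in CD90+ and 699 in CD90- cells, 2.20-fold lower, and its second measured probe set had nearly the same log2 ratio (-1.15). Close to 2-fold lower, but under the threshold, were ZSCAN30 and INO80C, a subunit of the INO80 chromatin remodeller (1.91-fold, 2012 against 3836). ONECUT2, a cut-homeobox factor, read 62.8 against 143, the first of these under the floor, and its log2 ratio of -0.998 is therefore only a bound. MBD2, a protein that binds methylated CpG, read 4256 in CD90+ and 7309 in CD90- cells, 1.72-fold lower. Its relative MBD1 differed less, at 689.6 against 857 (1.24-fold). TCF4, a helix-loop-helix E protein, read 2612 in CD90+ and 4206 in CD90- cells, and 7 of its 8 measured probe sets were below 0. At the other end stood CTDP1, a phosphatase of RNA polymerase II, at 125 against 121, CXXC1, which binds unmethylated CpG, at 990.2 against 1070.1, and ADNP2, a homeodomain zinc finger protein, at 919 against 1017. CXXC1 rests on disagreeing probe sets, since its dimmer one read 177 against 471 (log2 ratio -1.41). The other 10 measured genes of the group lay between -0.89 and -0.31, among them ZCCHC2 (487 against 899.6), TSHZ1 (131 against 215), SETBP1 (650.4 against 919) and RPRD1A (1249 against 1839), whose probe sets were below 0 in 5 of 6 cases. The dimmer measured probe set of TSHZ1 read 84.4 against 82.1 (log2 ratio 0.04).

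Trafficking, secretory and autophagy genes were below 0 in all 18 measured cases, 14 of them by at least 1.5-fold, and the median was -0.78. ATP9B, a phospholipid flippase of the Golgi, was 3.55-fold lower at 169 in CD90+ and 600.2 in CD90- cells, the lowest ratio of any member with the floor in place. This value rests on 1 measured probe set, the others being under the floor on both arrays. Without a floor ZBTB7C (-2.16) and CFAP53 (-2.13) were lower than ATP9B (-1.83). ATP8B1, the flippase of the apical membrane mutated in familial cholestasis, was 2.96-fold lower at 1433 in CD90+ and 4245 in CD90- cells. The second probe set of ATP8B1, of a class prone to cross-hybridisation, gave a log2 ratio of -0.43. EPG5, an autophagosome tethering factor, was 1.96-fold lower (135 against 263), and of its 5 measured probe sets 4 were below 0 and 1 at 0.48. SEC11C, a subunit of the signal peptidase, read 1406 in CD90+ and 2669.6 in CD90- cells. IER3IP1, a protein of the endoplasmic reticulum, read 2963 in CD90+ and 5598 in CD90- cells, and TMX3, a thioredoxin-like disulfide isomerase there, 1225 against 2135. PIK3C3, the class III PI 3-kinase that starts autophagosomes, read 547 in CD90+ and 1014 in CD90- cells. VPS4B, the ATPase that disassembles ESCRT-III, read 1506 against 2747, and MYO5B, the myosin of recycling endosomes, 929 against 1715. These 6 genes lay between 1.74-fold and 1.90-fold lower. TXNL1, a thioredoxin-like protein of the proteasome, read 5974 in CD90+ and 9574 in CD90- cells, and GALNT1, which starts mucin-type O-glycans, 2691 against 4565 with 4 of 4 probe sets below 0. The smallest differences were those of the cargo receptor LMAN1 (3839.9 against 5370.2), the transporter SLC66A2 (456 against 598) and the GTPase RAB27B (459 against 583).

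**Figure D3:**
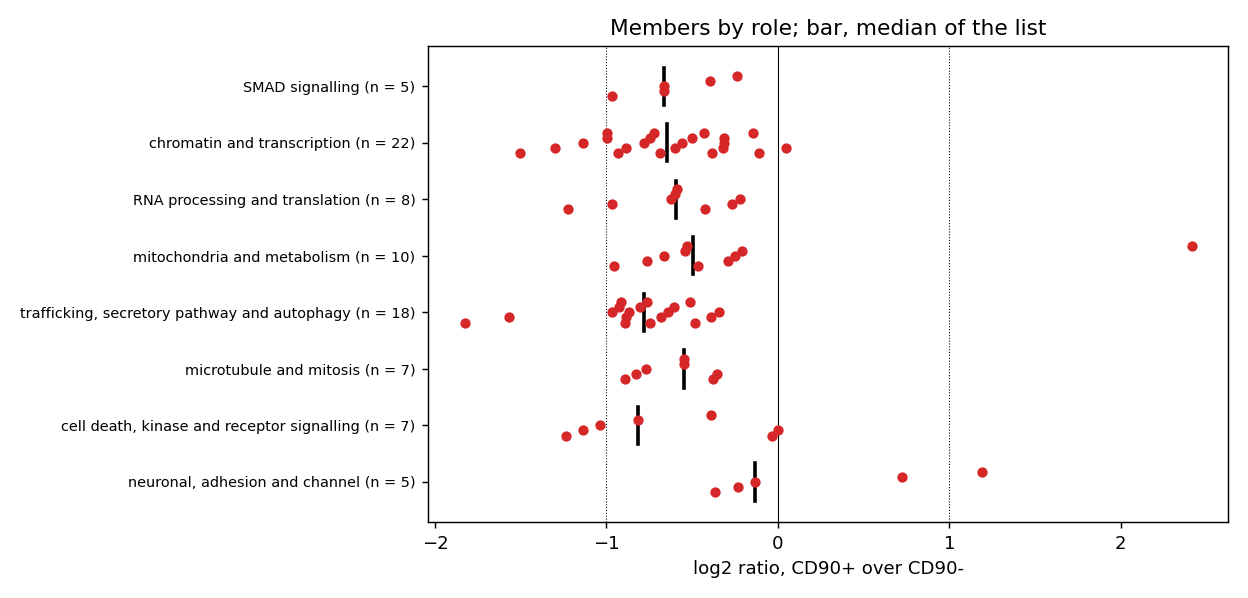
Log2 ratio (CD90+ over CD90-) of the measured members by role; points are genes, vertical bars list medians, dotted lines 2-fold. All lists have medians below 0. The trafficking list (median -0.78) lies wholly below 0, as do the SMAD, RNA processing, microtubule and cell death lists. The neuronal list (median -0.13) holds FHOD3 and DSEL above 0.

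Mitochondrial and metabolic genes held both the brightest member and the one highest in CD90+ cells. ATP5F1A, the alpha subunit of ATP synthase, read 13885 in CD90+ and 19143 in CD90- cells, 1.38-fold lower. TIMM21, of the inner membrane translocase, read 2702 in CD90+ and 5251 in CD90- cells, 1.94-fold lower, and ME2, the mitochondrial malic enzyme, 907 against 1538, 1.70-fold lower. HDHD2, a haloacid dehalogenase-like phosphatase, read 773 against 1227, FECH, which inserts iron into heme, 315 against 458, and PTGR3, a reductase with 6 of 6 probe sets below 0, 316 against 455. Differences were smaller for the zinc transporter SLC39A6 (6705 against 8197), the sphingolipid reductase KDSR (1056 against 1258) and the dipeptidase CNDP2 (4004 against 4631). The dimmer probe sets of KDSR gave -0.74 and -0.90, further below 0 than the brightest (-0.25). ACAA2, the mitochondrial thiolase of fatty acid oxidation, went the other way by 5.34-fold, at 586 in CD90+ and 109.8 in CD90- cells. Of its probe sets 1 reached the floor. Without ACAA2 the 9 other measured genes of this list were all below 0.

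Genes of RNA processing, translation and DNA repair were below 0 in all 8 measured cases, with a median of -0.59. ELAC1, a tRNA 3' processing nuclease, was 2.34-fold lower at 94.3 in CD90+ and 221 in CD90- cells. Its other measured probe set was lower in CD90+ cells too (38.0 against 74.7), with the CD90+ side under the floor. RBFA, a ribosome binding factor of mitochondria, read 309 in CD90+ and 605 in CD90- cells, 1.96-fold lower. NARS1, the asparaginyl-tRNA synthetase, and TXNL4A, of the U5 snRNP, had alike ratios: 6646 in CD90+ and 10248 in CD90- cells, and 6719 against 10194. ELP2, an Elongator subunit, read 596 against 895, but its 4 probe sets split, 2 below 0 and 2 above, from -0.66 to 0.49. CTIF, of the cap-binding complex (145 against 194), the RNA-binding ubiquitin ligase MEX3C (1710.0 against 2056) and the translesion polymerase POLI (333 against 388) differed less.

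Spindle and microtubule genes were below 0 in 7 of 7 measured cases, with a median of -0.55. SKA1, of the kinetochore, read 353 in CD90+ and 625 in CD90- cells (1.77-fold lower), HAUS1, of the augmin complex, 2937 against 4289 (1.46-fold) and RTTN, of the centriole, 407 against 528. TPGS2, a subunit of tubulin polyglutamylase, read 1005 against 1283, with 5 of 6 probe sets below 0. The ciliary gene CFAP53 (30.4 against 133, at least 1.85-fold) and the katanin relative KATNAL2 (68.0 against 122, at least 1.70-fold) read under the floor in CD90+ cells, so these folds are lower bounds. Without a floor the log2 ratio of CFAP53 was -2.13.

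Signalling and cell death genes were uneven. BCL2 read 211 in CD90+ and 497 in CD90- cells, 2.35-fold lower, SOCS6, a suppressor of cytokine signalling, 195 against 429 (2.20-fold) and PHLPP1, a phosphatase of AKT, 121 against 248 (2.05-fold). TNFRSF11A, the receptor RANK, read 315 in CD90+ and 555 in CD90- cells (1.76-fold lower). MALT1, a paracaspase of NF-kB signalling, read 385 in CD90+ and 395 in CD90- cells, and PSTPIP2, an F-BAR adaptor, 569 against 569, so both were equal in the 2 samples within 1.03-fold. PSTPIP2 had no settled direction, since quantile normalization moved it above 0. The second measured probe set of BCL2 went the other way, at 118 in CD90+ and 72.1 in CD90- cells (log2 ratio 0.72), so the direction of BCL2 depends on the probe set. Of the BCL2 family elsewhere in the genome 11 genes were measured, 8 below 0 and 3 above, with a median of -0.12. Of these 0 were beyond 2-fold, where 1.75% of all genes were lower and 2.47% higher, so that count says little. The lowest were BIK (586 against 940, 1.60-fold lower) and BCL2L11 (445 against 639, 1.44-fold lower), and the highest BAX (761 against 605). The brightest of the family were MCL1, an inhibitor of apoptosis (6097 against 6101), and BID, a BH3-only activator (4583 against 5138).

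Neuronal, adhesion and channel genes were mostly under the floor. Of 19 with a probe set 14 were under the floor on both arrays, DCC, the cadherins CDH7, CDH19 and CDH20, and NETO1 among them. DSEL, a dermatan sulfate epimerase-like protein, was higher in CD90+ cells (596 in CD90+ and 362 in CD90- cells, 1.65-fold), and so was FHOD3, a formin that assembles actin (284 in CD90+ and 124 in CD90- cells, 2.28-fold). Both rest on 1 measured probe set. MBP, myelin basic protein, whose locus also gives a widely expressed transcript, read 404 against 522, with 3 of 4 probe sets below 0. The MBP probe set at 47.1 against 84.5 could only be below 0, and that at 84.2 against 41.5 only above 0. SIGLEC15 (39.0 against 84.1) and ST8SIA5 (54.3 against 78.5) were near the floor.

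Outside the role lists stood 6 measured members. C18orf54 was 2.13-fold lower (304 against 648) on its brightest probe set and alike on another, while its last measured one read 216 against 142 (log2 ratio 0.60). RMP24 read 815 against 1134, KIAA1328 77.1 against 93.9 and CCDC102B 42.4 against 104, all lower in CD90+ cells. FBXO15 (164 against 159) and HSBP1L1 (356 against 348) were nearly equal in both populations. With FHOD3, ACAA2, DSEL and CTDP1 they make up the 6 members above 0.

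The members at least 2-fold lower were thus ATP9B, ATP8B1, ZBTB7C, ZNF24, BCL2, ELAC1, NFATC1, SOCS6, C18orf54 and PHLPP1. Their number depends on the settings: it was 18 with the floor at the 25th percentile, 2 with the floor at the 75th, and 4 by each gene's least changed probe set. The count below 0 moved less, from 70 of 89 by the least changed probe set to 61 of 63 with the floor at the 75th percentile.

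Different probe sets of a member gave a further view of the same RNA. The 124 members with a probe set have 356, of which 192 reached the floor and 171 of these were below 0 (89.1%). Of all 23591 probe sets that reached it, 50.2% were below 0. Leaving aside the probe set that stands for each gene, 89 of 104 were below 0, with a median of -0.47. Many of the 89 reached the floor in CD90- cells alone and could only be below 0, such as 1 of FECH (66.0 against 165). Probe sets of EPG5, DYM, SMAD4, PIK3C3, POLI, TXNL4A and ZCCHC2 were among them. Fewer reached it in CD90+ cells alone and could only be above 0, such as 1 of ELP2 (101 against 29.2). The count below 0 was thus fixed in part by the floor. The rule took in every probe set of the members, so these counts are a description. Of the 51 members with 2 or more measured probe sets 38 were below 0 on all, 0 above 0 on all, and 13 had both signs. Members among the 38, such as FECH, DYM and SMAD4, include probe sets that could only be below 0. Pooled within genes, the SD of log2 ratios was 0.40 over these 51 members and 0.31 over all 6188 genes with 2 or more. It covers array noise and differences between transcripts, and no spread between sorts. BCL2 and C18orf54 had probe sets at least 0.5 apart from 0 in each direction.

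**Figure D4:**
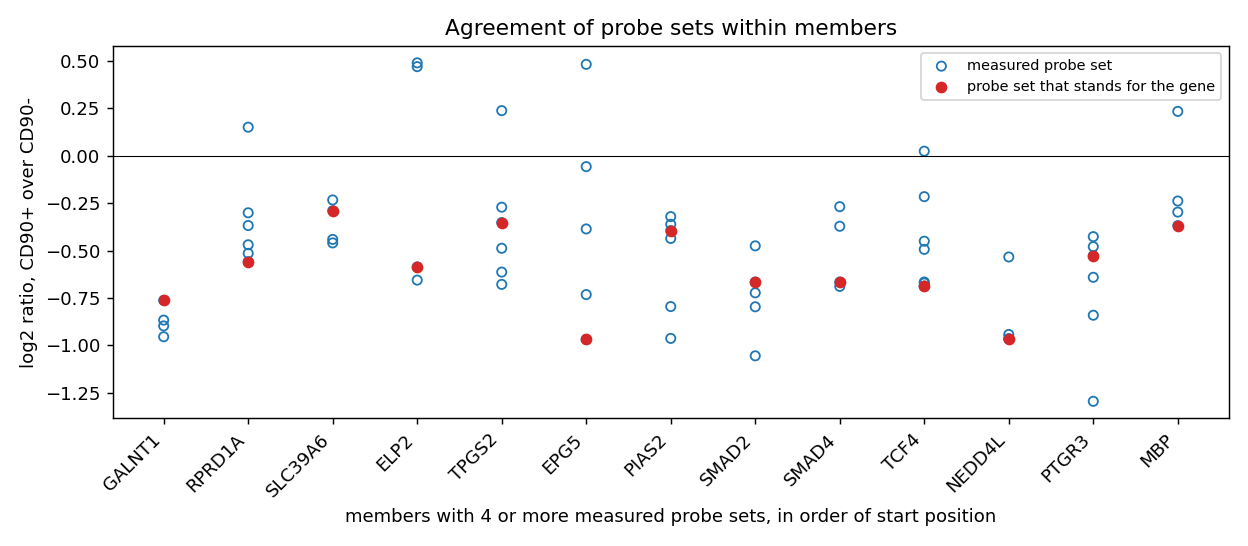
Log2 ratio (CD90+ over CD90-) of every measured probe set of the 13 members with 4 or more; red, the probe set that stands for the gene. In 7 of the 13 every probe set was below 0, and in ELP2 2 of 4 were above 0.

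Promoters are shown for 2 members that were lower and for the 2 that were at least 2-fold higher in CD90+ cells, to set their sequences side by side; these genes were picked after their values were seen. Each is the run of 250 bases before the annotated start from RefSeq on GRCh38.p14, 5′ to 3′ on the gene's strand. Capitals mark the GC box, GGGCGG on either strand. SMAD4 lies at chr18:51029963-51030212 on the + strand, BCL2 at chr18:63319770-63320019 on the - strand, ACAA2 at chr18:49813534-49813783 on the - strand and FHOD3 at chr18:36297463-36297712 on the + strand.
SMAD4: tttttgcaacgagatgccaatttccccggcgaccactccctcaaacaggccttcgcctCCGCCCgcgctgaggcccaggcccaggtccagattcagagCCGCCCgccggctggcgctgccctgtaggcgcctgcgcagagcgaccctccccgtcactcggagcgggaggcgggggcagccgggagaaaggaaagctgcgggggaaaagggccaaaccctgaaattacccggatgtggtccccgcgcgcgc
BCL2: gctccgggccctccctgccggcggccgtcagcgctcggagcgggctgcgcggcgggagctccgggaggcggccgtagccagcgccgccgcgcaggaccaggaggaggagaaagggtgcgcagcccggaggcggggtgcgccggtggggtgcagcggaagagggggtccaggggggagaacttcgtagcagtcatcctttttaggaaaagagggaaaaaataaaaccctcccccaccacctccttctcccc
ACAA2: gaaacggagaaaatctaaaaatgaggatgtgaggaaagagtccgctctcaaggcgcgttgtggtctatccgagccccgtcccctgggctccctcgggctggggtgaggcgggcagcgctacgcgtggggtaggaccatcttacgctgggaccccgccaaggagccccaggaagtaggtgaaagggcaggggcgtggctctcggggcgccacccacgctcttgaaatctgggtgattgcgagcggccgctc
FHOD3: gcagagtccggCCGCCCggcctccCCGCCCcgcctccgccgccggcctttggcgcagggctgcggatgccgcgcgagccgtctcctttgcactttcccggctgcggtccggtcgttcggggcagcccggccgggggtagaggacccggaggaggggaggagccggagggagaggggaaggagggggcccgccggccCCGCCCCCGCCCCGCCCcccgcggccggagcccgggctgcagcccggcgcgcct

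The 4 windows were rich in G and C, at 68.4% (SMAD4), 70.0% (BCL2), 63.6% (ACAA2) and 81.6% (FHOD3). They held 25, 24, 20 and 35 CpG dinucleotides in that order. The GC box occurred 2 times in SMAD4 and 5 times in FHOD3, matches that may overlap, and was not found in BCL2 or ACAA2. The TATA box TATAAA, on either strand, was found in none of the 4. Over windows from 250 bases before to 50 bases past the start, 78 of the 88 members had an entry, and 63 (80.8%) held a GC box and 1 (1.28%) a TATA box. The measured genes of the rest of chromosome 18 had 69.7% and 6.06% over 66 windows, and all 15843 protein-coding genes with a window 58.5% and 9.63%. The median GC share was 68.3% in the measured members, 66.8% in the rest of chromosome 18 and 62.7% over all protein-coding genes. The 34 members under the floor with an entry had a median of 58.3%. A match is a description of letters and not of binding.

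**Figure D5:**
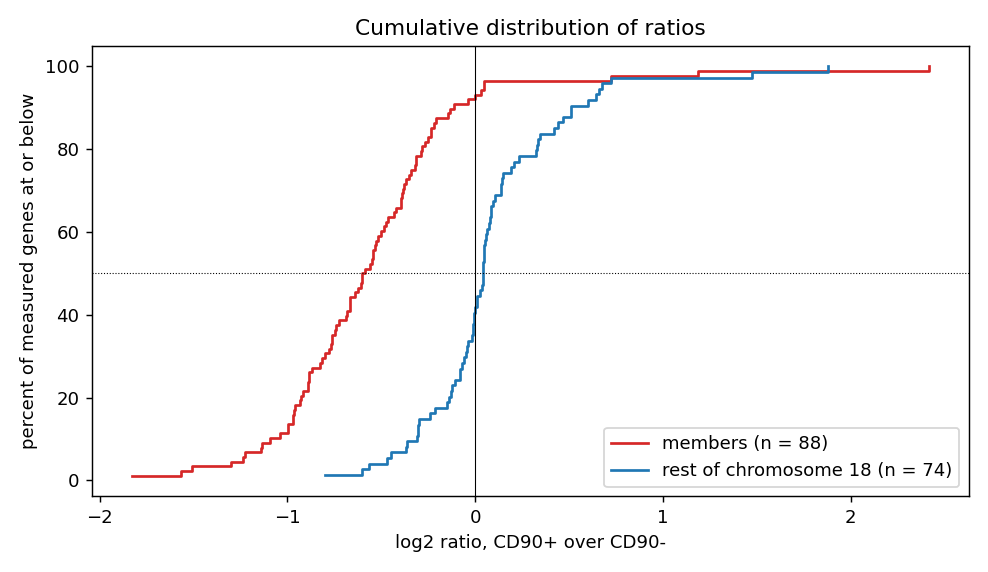
Percent of measured genes at or below each log2 ratio (CD90+ over CD90-), for 88 members and for 74 other genes of chromosome 18. The curve of the members lies to the left, crossing 50% at -0.59 against 0.04, and both reach past 1 through 2 genes each.

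Some transcripts of the stretch fell outside the rule. Of 39 genes that are not protein-coding and have a probe set, 9 were above the floor and 8 of these were below 0, with a median of -0.16, where 48.8% of all genes were below 0. LINC02837, TCF4-AS1 and LINC01896 reached the floor in CD90- cells alone and could only be below 0. ZNF271P, a transcribed zinc finger pseudogene, read 413 in CD90+ and 655 in CD90- cells, and the antisense RNA ZNF407-AS1 342 against 554. The long noncoding RNA MIR924HG read 204 against 247. Most of the others were near the floor, and SCARNA17, a small Cajal body RNA, was the 1 above 0 (85.6 against 67.2). Another 5 probe sets carry several symbols, each inside the stretch, and are not named. All were below 0, from -0.50 to -0.14, and the brightest read 26342 against 31228.

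The remaining members gave no ratio. On both arrays 36 were under the floor in the probe set that stands for them, among them MOCOS, LIPG, CYB5A, MC4R, GALR1, SALL3 and CD226. CYB5A, cytochrome b5, had another probe set above it (90.6 against 51.9). For 16 no probe set had a single symbol, SKOR2, RPL17 and C18orf32 among them, and 6 of the 16 are known by a LOC number.

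As a check of the labels, THY1 was higher in CD90+ cells on all of its 3 probe sets, at 293 against 78.9, 244 against 49.6 and 517 against 35.5. The squamous epithelial markers KRT5, KRT14, SOX2, DSG3 and CDH1 were all above the floor, with summed signals of 64055 in CD90+ and 64342 in CD90- cells. They did not move as one: the log2 ratios were 0.52 for KRT14, 0.51 for DSG3, 0.13 for CDH1, 0.01 for KRT5 and -0.23 for SOX2. Of 6 fibroblast markers 1 was above the floor, COL1A1 at 2125 against 1240.2, and the list's summed signals were 2284 and 1364. Of 4 endothelial markers 1 was, PECAM1 at 98.5 against 70.9 (sums 155 and 102), and of 4 leukocyte markers 0 were (sums 43.1 and 109). The part of such cells in the lower ratios was not tested. Both arrays had been scaled to a common trimmed mean of 499.9, with medians of 72.1 and 71.1, so a change of total RNA per cell would not be seen.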

How the data were processed

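Total RNA of the CD90+ and the CD90- fraction was measured on 1 array each. The deposited values are linear signal intensities of 54675 probe sets, made by the authors with MAS5 per the submitters' processing notes. The MAS5 version is not given in the sources used here. Probe sets with 1 gene symbol (41097) were named through the platform annotation and RefSeq gene identifiers. Groups follow the cell population label. With 1 array per population no test or interval is possible.

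Signals under the floor were set to it, the log2 ratio was taken on the brightest probe set, with the _x_at class a last resort, and genes were counted at 2-fold. Named were members beyond 2-fold, the extremes and the brightest of each role list, the SMAD genes, border genes and members with 4 or more or conflicting probe sets; further members were added after their values were seen. The members and lists were chosen with earlier results of these data known. Alternatives changed the floor, normalization, probe set rule, filter and membership. Steps were tested on simulated data. Python 3.11.15, numpy 2.4.6, pandas 2.3.3, statsmodels 0.14.6 and matplotlib 3.10.9 were used.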

Additional observations from a re-analysis of the deposited data

How the results depend on the processing

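The members' median stayed between -0.62 and -0.52 under 10 of the 11 alternatives and was -0.34 by the least changed probe set, which picks values near 0 by construction. The median of the rest of chromosome 18 moved by less than 0.1 under all 11. Members at least 2-fold lower, 10 as reported, numbered 16 without a floor. They numbered 18 when the floor was the 25th percentile and 2 when it was the 75th. Averaging a gene's probe sets gave 5, and its least changed probe set gave 4. Members at least 2-fold higher, 2 as reported, numbered 4 with the lower floor, 0 with the higher and 1 without the shared and cross-hybridising probe set classes. Over all genes the counts lower and higher were 218 and 308 as reported, 381 and 541 without a floor, 835 and 1122 with the lower floor, 66 and 89 with the higher, and 143 and 225 by the least changed probe set. By the least changed probe set 11 of the 60 members named by the rule changed sign: BCL2 (0.72), C18orf54 (0.60), ELP2 (0.47), ZSCAN30 (0.39), TPGS2 (0.24), MBP (0.23), RPRD1A (0.15), CNDP2 (0.06), MALT1 (0.03), TCF4 (0.02) and PARD6G (0.01). TSHZ1, which was named later and is not among the 60, also had its least changed probe set above 0 (0.04). ELP2 was also at 0.47 without the shared and cross-hybridising classes. PSTPIP2, at nearly 0, changed sign under quantile normalization. ZNF24, ELAC1, ATP8B1 and SOCS6 were under 2-fold by the least changed probe set and by the mean over probe sets, BCL2 and C18orf54 by the mean as well, while ACAA2, C18orf54, BCL2, SOCS6, ATP9B and NFATC1 were under 2-fold with the higher floor. Signal over background limits the dim members, for which the floor stands in place of detection calls.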
